A study of Caenorhabditis elegans with 12 samples.

Results

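The genes described here are protein-coding genes that were strongly targeted by antisense small RNAs in wild-type worms and yet were not among the targets of the Argonaute WAGO-4. They were taken from the deposited count matrix of the input libraries, which gives reads per gene and strand. A gene was a member when it appeared in neither of the deposited tables of WAGO-4 targets and when its antisense reads averaged at least 50 RPM over the 3 WT inputs. Only the mean counted, so a gene could pass through 1 library. AC8.4 did so, with 0, 832 and 0 reads in the WT inputs and 8600, 0 and 1500 in the 3×FG inputs. RPM scales the reads of a row to the same total in each library, here the reads assigned to a feature. Of 19691 rows antisense to protein-coding genes, 642 met the rule, and 348 WAGO-4 target genes reached the same minimum. Absence from a target table says that a gene did not pass the authors' enrichment of IP over input, and IP values of the members were not analysed here.

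Small RNAs were sequenced from whole *C. elegans* young adults grown at 20 °C, from lysates before IP (inputs, 3 libraries for each genotype). The WT libraries came from strain YY1325, which carries wago-4(gg620[3xflag::gfp::wago-4]) on chromosome II, so that WAGO-4 bears a 3xFLAG and GFP tag. The 3×FG libraries came from strain SS142, which has the same tagged WAGO-4 and in addition glh-1(allele50[glh-1F>A]), glh-4(allele16[glh-4F>A]) and glh-2(allele49[glh-2 delFG]), all on chromosome I. Each genotype was represented by 1 strain, and the study describes its IP libraries, which were made from the same lysates as the inputs, as biological replicates.

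22G-RNAs are short RNAs that start with G and that RNA-dependent RNA polymerases copy from mRNAs in the germline and soma of *C. elegans*. Different worm Argonautes (WAGOs, CSR-1 and others) bind different sets of them. Some sets silence their target genes, and the set bound by CSR-1 lies on germline-expressed genes. The products of glh-1, glh-4 and glh-2 are Vasa-like helicases of germ granules, the perinuclear condensates where many of these Argonautes reside, and the study altered the FG repeats of these helicases to ask what germ granule localization of WAGO-4 is needed for. Antisense reads in the matrix were not sorted by length here, and are called antisense small RNAs or 22G-RNA levels below.

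The libraries held 2208475 to 20006273 reads in WT and 11890545 to 78826261 in 3×FG, and 4.58% to 6.14% of them lay on no feature. By the batch given in the labels, WT inputs 1 and 2 belong to batch A, and WT input 3 and all 3×FG inputs to batch B. The batches differed in composition. rRNA took 3.39% and 5.26% of reads in WT inputs 1 and 2, 21.2% in WT input 3 and between 15.9% and 20.3% in 3×FG, and piRNAs took 2.34% and 1.67% in batch A against 0.499% to 1.04% in batch B. Antisense reads of spermatogenesis genes, looked at as a sign of stage, made up 0.0337% to 0.0462% of reads in WT and 0.0505% to 0.0639% in 3×FG. The part that these differences have in the results below was not tested. The counts and medians over all members and the medians of several gene lists are given within batch B as well. Most results for single genes, abundance classes and sense reads are not.

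The 642 members carried most of the reads antisense to protein-coding genes in WT. They took 67.7%, 65.4% and 61.3% of these reads in WT inputs 1, 2 and 3, and 54.9%, 54.2% and 48.9% in the 3×FG inputs. The genotypes did not overlap, and WT input 3, the only WT input of batch B, also lay above all 3×FG inputs. As a share of all reads, members took 25.5%, 25.6% and 20.5% in WT and 18.6%, 19.6% and 19.6% in 3×FG, with 95% Wilson intervals of at most ± 0.0593 percentage points, which cover counting error only. Without rRNA rows in the total, the shares were 26.4%, 27.05% and 26.0% in WT and 23.3%, 23.6% and 23.4% in 3×FG. All 4804 WAGO-4 target genes together took 8.84%, 10.2% and 10.2% of reads in WT and 11.3%, 12.3% and 16.1% in 3×FG. These shares are a description, since the WT values chose the members. In whole worms, fewer cells that make a small RNA and less of it per cell cannot be told apart.

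**Figure D1:**
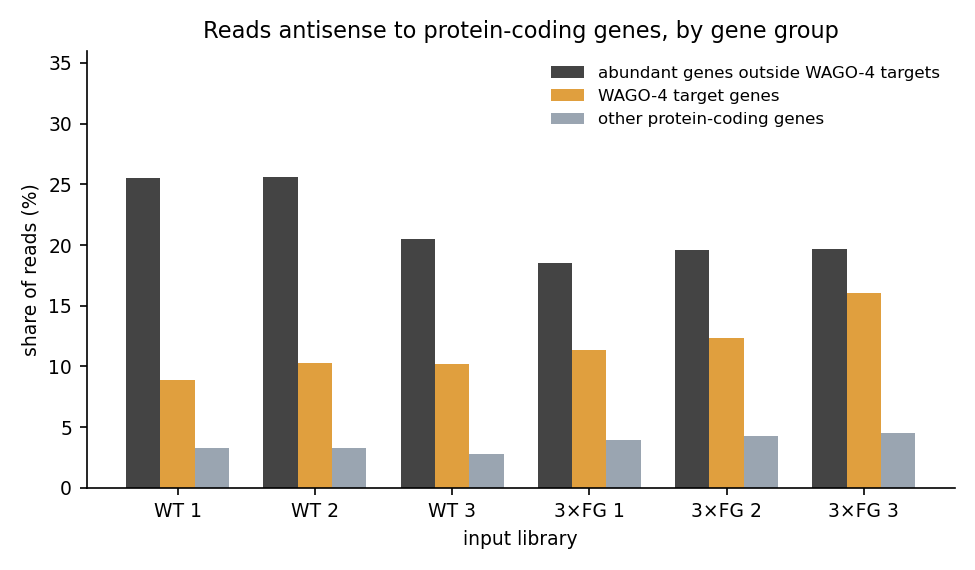
Share of the reads of each input library (%) that lay antisense to the 642 abundant genes outside the WAGO-4 targets, to all WAGO-4 target genes and to the other protein-coding genes. The members take 25.5%, 25.6% and 20.5% in WT and between 18.6% and 19.6% in 3×FG, and the targets between 8.84% and 10.2% in WT and between 11.3% and 16.1% in 3×FG.

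The most strongly targeted genes of the input lay outside the WAGO-4 targets. Of the 293 antisense rows at 200 RPM or more in WT, 265 were members and 28 were targets. All 49 genes at 1000 RPM or more were members, whereas the highest target reached 611 RPM. A target had to be enriched in IP over these same inputs, so a high input level works against target status. The split by level is therefore a description. A few genes took much of the signal: 10 members held 16.8% of the members' summed RPM and 64 held 50%. The members also had shorter transcripts than the targets at the same minimum. Their median exon length was 1272 bases against 2485, in 5 exon blocks against 7. Members lay nearer to the other groups, with 1578 bases in 6 blocks over all target genes and 1443 bases in 6 over all antisense rows tested. Per kilobase of exon, the median antisense level in WT was 111 RPM for members, 35.0 RPM for targets at the minimum and 4.58 RPM for all antisense rows tested.

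Members lay on all 6 nuclear chromosomes. Chromosome II held 115, I held 113, IV held 105, V held 96 and X held 90, and the remaining 19.2% were on III. Chromosome V held 15.0% of members against 24.8% of genes with an antisense row. The X chromosome held 14.02% of members and 13.6% of genes. Of the 348 targets at the minimum, in contrast, 2 (0.575%) were on X, and of all 4804 target genes 40 were on X. Germline-expressed genes are known to be sparse on the worm X chromosome. Counts of members called lower per chromosome ranged from 20 to 28, and the median log2 fold changes from -0.74 to -0.59.

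The 12 members with the highest WT level spanned 2701 to 6874 RPM in the mean of the WT inputs. F02C12.3 (X:13396973-13397782; coordinates are of WBcel235) was highest, with 7608, 7730.2 and 5283 RPM in WT and 5322, 5211 and 6653 RPM in 3×FG. Its genotypes overlapped, and per kilobase of exon it also led the 12, at 9520 RPM. Second was bath-45 (II:13123020-13125189), a gene with BTB and MATH domains, with 5333, 4988 and 4436 RPM in WT and 3814, 4199 and 3993 RPM in 3×FG. All its WT inputs lay above the 3×FG inputs, but the log2 fold change of -0.49 (standard error 0.21) did not pass the test (edgeR quasi-likelihood test, Benjamini-Hochberg adjusted p = 0.19).

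Next came Y71A12B.10, eri-6, fkb-8, W09C5.12, B0250.8 and bath-20. eri-6, which together with eri-7 encodes a helicase of the ERGO-1 pathway of endogenous RNAi, had 4347, 4208 and 3380.1 RPM in WT and 3149.9, 3538 and 3815 RPM in 3×FG, which overlapped. Its exons share bases with sosi-1 on the other strand, and the counting of reads by strand is not given in the sources used here. fkb-8, which encodes a peptidyl-prolyl isomerase of the FKBP family, had 3843, 3698 and 3431 RPM in WT and 2253, 2441 and 2000.1 RPM in 3×FG, without overlap. The level of sqst-1, the worm ortholog of the autophagy receptor p62, was higher in 3×FG on the RPM scale, from 2859, 2954 and 2407 RPM to 3219, 3351 and 3346 RPM, but its log2 fold change after TMM scaling was 0.07 (standard error 0.20). Over the 12 genes, the 3×FG mean was below the WT mean for 10, and the genotypes did not overlap for 8 of them. Such a decrease without overlap was seen in 63.3% of the members at 1000 RPM or more and in 17.4% of all antisense rows tested. The 12 genes were ranked by the same WT values, so these counts are a description. At the threshold used below edgeR called none of the 12, with 7 at an unadjusted p under 0.05, and DESeq2 also called none.

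**Figure D2:**
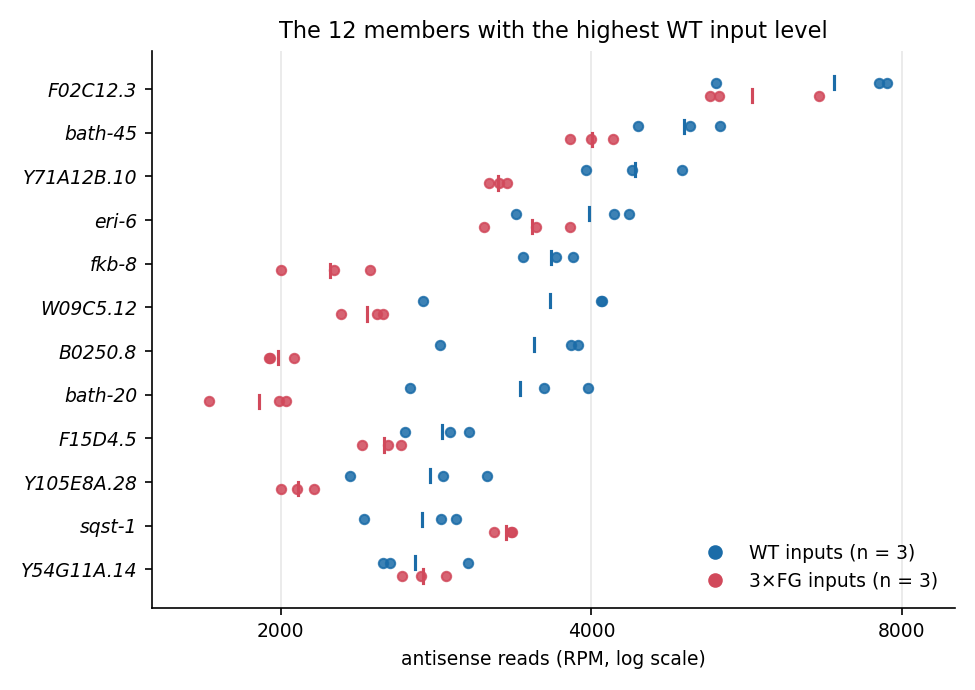
Antisense reads (RPM, log scale) of the 12 most abundant members in each input library, with WT in blue and 3×FG in red (points are libraries, vertical ticks the means). The WT means run from 6874 RPM for F02C12.3 to 2701 RPM for Y54G11A.14, and the 3×FG mean is lower for 10 of the 12 genes.

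To compare genotypes gene by gene, raw counts of the inputs were fitted over all rows of the matrix (edgeR quasi-likelihood test with TMM scaling), and a row was called where the Benjamini-Hochberg adjusted p was under 0.01 and the log2 fold change lay beyond -1 or 1. All 642 members were among the 22301 rows tested. In 3×FG, 140 members had lower and 14 had higher antisense levels, and 488 were not called. Over all rows tested, 2.04% were called lower and 0.839% higher, and over the rows antisense to protein-coding genes 3.06% and 1.51%. An unadjusted p under 0.05 was reached by 433 members, by 5748 of the 22301 rows and by 3886 of 10863 antisense rows. Of the 348 targets at the same minimum, 20 (5.75%) were called lower and 13 (3.74%) higher, and among less abundant genes outside the targets 2.75% and 1.94% were called. The WT values that chose the members are also the values that 3×FG was compared with, so a lean toward lower calls is built into the rule and the counts are a description. The targets were chosen through the inputs of both genotypes, as the denominators of the authors' enrichment. Of the 348, the 19 listed for 3×FG only had 9 lower and 0 higher calls, with a median log2 fold change of -1.69. The 81 listed for WT only had 0 lower and 10 higher calls, with a median of 0.27.

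The median log2 fold change was -0.64 for members (10th to 90th percentile -2.17 to 0.51), 0.27 for the targets at the minimum, 0.10 for all antisense rows and 0.18 for all rows. The median of all rows moved with the scaling, to 0.35 on RPM and 0.43 on totals without rRNA, where the members' median was -0.44 and -0.31. Relative to all rows, the members' median was thus -0.82 with TMM, -0.79 on RPM and -0.74 without rRNA. The gap was smaller in other settings, at -0.31 within batch B, -0.28 with a batch term and -0.20 with DESeq2, which was run on all rows with reads. On RPM, 133 members were called lower and 25 higher, and on totals without rRNA 125 and 36. The median of the members and that of the targets were on opposite sides of 0 with TMM, and the difference between the groups was not tested.

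On the RPM scale, all 3 3×FG inputs lay below all 3 WT inputs for 337 members and above them for 121, and the genotypes overlapped for 184. Of all antisense rows tested, 17.4% had 3×FG lower without overlap and 34.7% had it higher. For the targets at the minimum these shares were 16.4% and 54.9%. Relative to the WT mean, the median log2 ratio over members was 0.09, 0.11 and -0.24 in WT inputs 1, 2 and 3 and -0.50, -0.41 and -0.44 in the 3×FG inputs. WT input 3 thus lay between the batch A inputs and the 3×FG inputs.

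How members were chosen set much of the split between lower and higher calls. Chosen by the mean of all 6 inputs, 639 genes gave 99 lower and 46 higher calls, with a median of -0.40. Chosen by the 3×FG inputs, 618 genes gave 52 lower and 67 higher calls, with a median of -0.18. The targets chosen in the same ways had medians of 0.44 and 0.53. Chosen by the mean of WT inputs 1 and 2 and compared within batch B, 659 genes had a median of -0.28 against 0.26 for the targets. WT input 3 took no part in that mean. WT input 3 and the 3×FG inputs still entered the choice, as denominators of the enrichment that decided which genes were targets. That last way was chosen after seeing the data, and it rests on a single WT library. Which calls were more numerous thus depended on the genotype that picked the members, while their median stayed below 0.

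The number of calls also rested on single libraries. Without 3×FG input 3, 1 member was called lower and none higher, with 364 at an unadjusted p under 0.05, and without 3×FG input 2, 2 and none, with 383. Without 3×FG input 1 the counts were 20 and 2, without WT input 1 88 and 14, without WT input 2 47 and 3 and without WT input 3 252 and 20. Of the 66 genes named by rule, 29 were called, and of these 28 lost their call without 3×FG input 3, 27 without 3×FG input 2, 21 without 3×FG input 1, 13 without WT input 2 and 6 without WT input 1. The fold changes moved less than the calls. Of the 140 lower members, at least 137 stayed beyond -1 with any one library left out, and all 140 stayed below 0. The 140 were picked for their fold change in the same 6 libraries, so this is largely built in. Within batch B, where WT is a single library whose spread is assumed to be that of the 3×FG inputs, 159 were called lower and 48 higher, of which 133 and 14 were among the 140 and 14. DESeq2 called 198 lower and 27 higher, including all but 1 of the 140 and all 14.

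**Figure D3:**
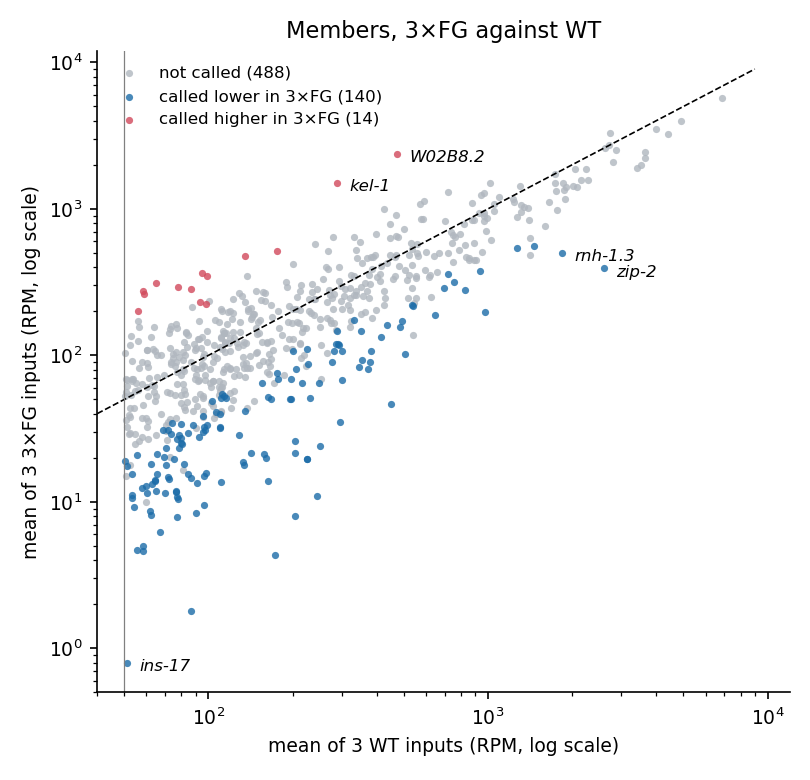
Mean antisense level of each of the 642 members in the 3 WT inputs (x) and the 3 3×FG inputs (y), both in RPM on a log scale, with the dashed line at equal levels and the vertical line at the minimum of 50 RPM that chose the members. 140 members are called lower (blue) and 14 higher (red). *zip-2* and *rnh-1.3* stand out below the line among the abundant members.

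**Figure D4:**
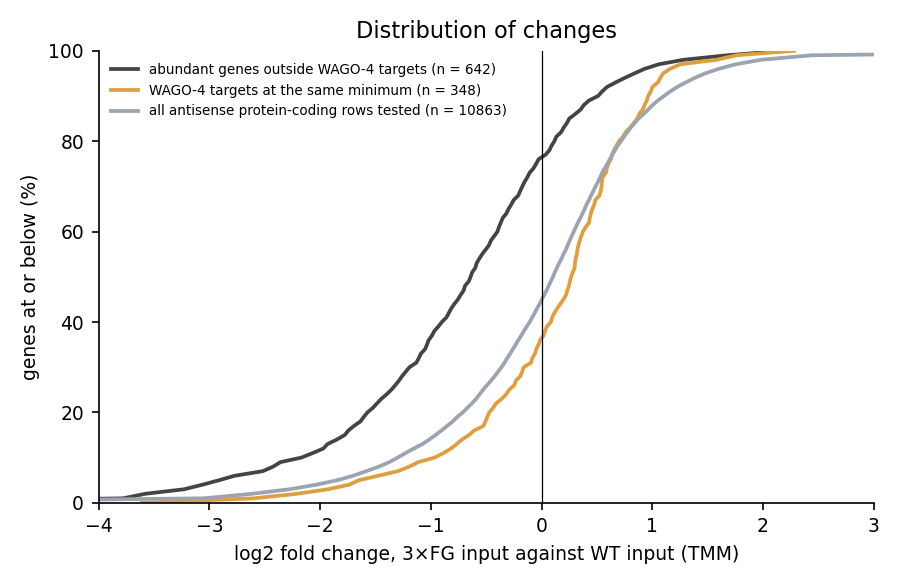
Cumulative share of genes (%) by log2 fold change of antisense reads, 3×FG against WT inputs (edgeR, TMM), for the 642 members, the 348 WAGO-4 targets at the same minimum and the 10863 antisense rows tested. The curve of the members lies to the left, with a median of -0.64 against 0.27 and 0.10, and the WT values used here also chose the members and these targets. The inputs of both genotypes also entered the choice of targets, as the denominators of the authors' enrichment.

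The median of the members was below 0 in every class of abundance. The classes were cut on the WT values that 3×FG was compared with, so a lean toward lower calls is built in. Of the 49 members at 1000 RPM or more, 4 were called lower and none higher, with a median of -0.64. Of 216 members between 200 and 1000 RPM, 45 were lower and 2 higher, of 158 between 100 and 200 RPM 27 and 2, and of 219 between 50 and 100 RPM 64 and 10. The medians of these 3 classes were -0.63, -0.69 and -0.65. Of 28 targets between 200 and 1000 RPM, 1 was called lower and 0 higher. Of 83 targets between 100 and 200 RPM, 4 were lower and 3 higher, and of 237 between 50 and 100 RPM 15 and 10. Over all rows tested, 2.04% were called lower and 0.839% higher. In 3×FG, 6 members averaged under 5 RPM. At the minimum itself, the members F54G2.1 (50.3 RPM), C44B12.6 (50.5 RPM) and stn-1 (50.5 RPM) had log2 fold changes of -0.11, -1.60 and 0.85. Just below it, nac-1 (49.8 RPM), Y23H5B.3 (49.9 RPM) and T16H12.13 (49.97 RPM) had -1.07, -2.20 and -2.33.

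The 4 abundant members that fell were picked out after their values were seen. zip-2 (III:832982-835814), which encodes a bZIP transcription factor of the response to pathogens, had 2982, 2689.9 and 2120.0 RPM in WT and 399.8, 381 and 399 RPM in 3×FG. The level fell in every 3×FG library, with a log2 fold change of -2.92 (standard error 0.22, edgeR adjusted p = 0.0012), and ranged from -3.04 to -2.53 over 15 other settings. rnh-1.3, on chromosome I, which encodes a ribonuclease H, had 2146, 2035 and 1345 RPM in WT and 484, 482 and 544 RPM in 3×FG (-2.08, standard error 0.25, edgeR adjusted p = 0.0048). W09H1.4 (II:13183528-13185921) had 1332, 1537 and 1508 RPM in WT and 540.3, 533 and 596 RPM in 3×FG (-1.59, standard error 0.16, edgeR adjusted p = 0.0028).

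The fourth was pan-1 (III:4562738-4566283), which encodes a leucine-rich repeat protein that associates with P granules. It had 1338, 1394 and 1061 RPM in WT and 558, 563 and 509.7 RPM in 3×FG. The genotypes did not overlap, and the log2 fold change was -1.42 (standard error 0.21, edgeR adjusted p = 0.0091). For all 4 genes the lowest WT input lay at least 1.88 times above the highest 3×FG input.

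The largest decreases reached genes whose antisense reads nearly vanished in 3×FG. ins-17 (III:4476918-4477572), an insulin-like peptide gene, had 47.8, 55.5 and 50.1 RPM in WT and 0.83, 0.85 and 0.71 RPM in 3×FG (log2 fold change -6.17, standard error 0.23, edgeR adjusted p = 0.00021). Y53F4B.12 (II:15019223-15025782) had 96.5, 94.3 and 68.1 RPM in WT and 1.78, 1.78 and 1.85 RPM in 3×FG (-5.77, standard error 0.26). Both genes were at least 36.8 times lower in every 3×FG library than in any WT library.

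K07C5.13 (V:10342055-10342938) had 173, 205 and 139.1 RPM in WT and 5.68, 3.73 and 3.62 RPM in 3×FG, with a log2 fold change of -5.49. gtf-2A2 (III:12624766-12625897), which encodes a subunit of the general transcription factor TFIIA, had 228, 228 and 153 RPM in WT and 7.09, 7.36 and 9.70 RPM in 3×FG, with -4.87. Y110A2AL.10 (II:2871171-2871916) had 195, 291 and 244 RPM in WT and 12.2, 6.22 and 14.4 RPM in 3×FG, with -4.69. In all 3 genes the drop was far larger than the spread of the libraries, with edgeR adjusted p between 0.00058 and 0.0012.

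The next decreases were those of sod-4 (-3.85), an extracellular superoxide dismutase gene, plr-1 (-3.78), which encodes a transmembrane ubiquitin ligase that acts on Wnt receptors, inso-1 (-3.77), F13H10.9 (-3.75) and W09B7.1 (-3.72). sod-4 shares exon bases with ctr-9 on the other strand. W09B7.1 (V:8830183-8831441) had the same counts in every library as F07B7.1 (V:8872277-8873535), with 258, 261 and 159 RPM in WT and 20.5, 21.3 and 17.3 RPM in 3×FG. Reads of these genes cannot be told apart, and they count as 1 measurement. In all, 69 of the 642 members were called with a log2 fold change below -2. The same held for 305 of all 22301 rows tested, 225 of 10863 antisense rows and 8 of the 348 targets at the minimum. Members were chosen by their WT level, so a lean toward decreases is built in.

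Increases were fewer and smaller. kel-1 (II:11688943-11696059), a kelch repeat gene, had 242, 301 and 319 RPM in WT and 1268, 1383 and 1843 RPM in 3×FG (log2 fold change 2.18, standard error 0.20, edgeR adjusted p = 0.0019). Its exons share bases with tars-1 on the other strand. W02B8.2 (II:13908914-13915254) had 471, 497 and 452 RPM in WT and 2177, 2291 and 2659 RPM in 3×FG (log2 fold change 2.13, standard error 0.18, edgeR adjusted p = 0.0014). Its 3×FG mean of 2376 RPM was above that of fkb-8 (2231 RPM), which was far more abundant in WT.

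C28C12.1 (2.08), F10E9.2 (2.03) and jip-1 (1.97), which encodes a scaffold protein of JNK signalling, rose from WT means of 64.8, 58.2 and 58.7 RPM to 314, 277 and 263 RPM. They were followed by clp-6 (1.75), a calpain protease gene, T03D3.5 (1.71), wdr-60 (1.64), which encodes a dynein subunit of intraflagellar transport and overlaps tmem-131 on the other strand, T05G5.1 (1.63) and C53A5.13 (1.62). F08A8.5 (1.51), nrps-1 (1.36), which encodes a nonribosomal peptide synthetase, gcc-1 (1.12) and F28H6.4 (1.01) completed the 14. In these 14 genes no 3×FG library was as low as any WT library.

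**Figure D5:**
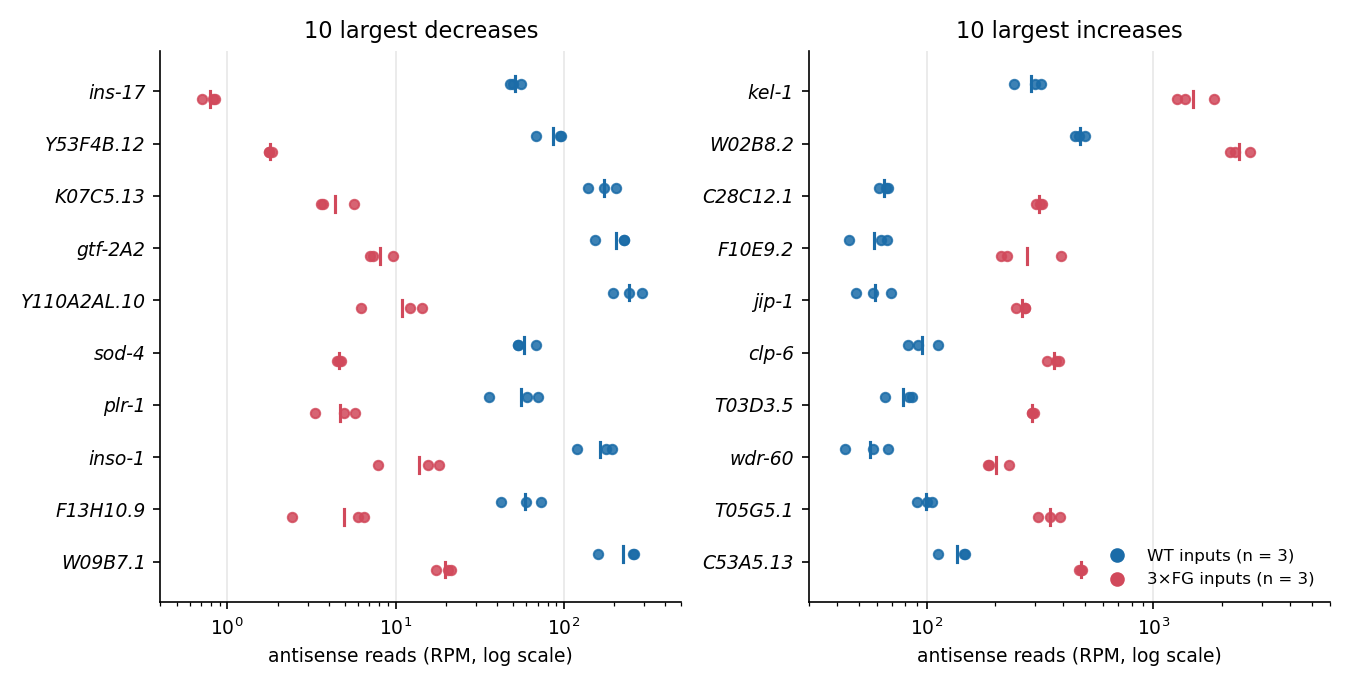
Antisense reads (RPM, log scale) of the 10 members with the largest decreases (left) and increases (right) among called members, in each WT (blue) and 3×FG (red) input; ticks mark means. *ins-17* falls from a mean of 51.1 RPM to 0.79 RPM and *kel-1* rises from 287 RPM to 1498 RPM.

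Genes known only by a sequence name made up 367 of the 642 members, or 57.2%, with 80 called lower and 8 higher. Among the named families, F-box genes were the largest group. F-box proteins are the substrate-binding parts of SCF ubiquitin ligases and form a large, fast-evolving family in nematodes. Of 322 measured F-box genes, 28 were members and 14 were targets. In 3×FG, 10 of the 28 were called lower and none higher, with 24 at an unadjusted p under 0.05, and their median was -0.99. Over all members, 21.8% were called lower and 67.4% had an unadjusted p under 0.05, and whether F-box genes differ from the other members was not tested. The F-box median was -0.79 on RPM and -0.65 without rRNA, and within batch B, with its single WT library, 11 were called lower and 1 higher. fbxc-43 was the most abundant, with 1732, 1798 and 1421 RPM in WT and 1077, 1069.7 and 1214 RPM in 3×FG, and was not called (-0.76, edgeR adjusted p = 0.052). fbxa-150 fell from 221, 210.0 and 179.9 RPM to 28.9, 24.2 and 24.5 RPM (-3.17, edgeR adjusted p = 0.00085). fbxa-224 had the highest fold change, at 0.90 (edgeR adjusted p = 0.10), and was not called.

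Genes of the MATH and BTB/MATH family, adaptors of cullin ubiquitin ligases in worms, gave 12 members of 74 measured, 10 of them on chromosome II. Of these 12, 2 were called lower and none higher, with 9 at an unadjusted p under 0.05, and the median was -0.57. Within batch B the median of the 12 was -0.33. bath-31 fell from 42.0, 52.3 and 58.7 RPM to 18.3, 14.9 and 19.3 RPM (-1.74, edgeR adjusted p = 0.0038), and bath-24 was the other. bath-15 had 108, 135 and 122.7 RPM in WT and 167, 176 and 191 RPM in 3×FG, without overlap, but its log2 fold change of 0.35 was not called.

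Of 269 measured nuclear hormone receptor genes, a family of ligand-regulated transcription factors, 6 were members, and nhr-1 and nhr-249 were called lower. The median log2 fold change of the 6 was -1.35, and -0.94 within batch B. nhr-1 fell from 49.2, 81.4 and 56.1 RPM to 9.18, 6.49 and 8.55 RPM (-3.15, edgeR adjusted p = 0.0020). nhr-15 was abundant, with 2048, 2326 and 1780.0 RPM in WT and 1749.8, 1778 and 2117 RPM in 3×FG, which overlapped. nhr-229 had 640.2, 425 and 337 RPM in WT and 732, 1106 and 904 RPM in 3×FG, and was not called (0.77, edgeR adjusted p = 0.16).

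Chemoreceptor-like genes, of which 1304 were measured, held 4 members. sra-35 fell from 59.8, 75.7 and 45.5 RPM to 9.11, 10.0 and 15.4 RPM (-2.61, edgeR adjusted p = 0.0043). srz-64, srz-67 and srt-43 were not called (-0.60, -0.28 and -0.16). Of 161 collagen genes, which build the cuticle, the members were col-71, col-111, col-157 and col-45, and none was called by edgeR or DESeq2, with 1 at an unadjusted p under 0.05. Their log2 fold changes were -0.21, 0.41, -0.95 and 0.05, and the median of the 4 changed sign with the scaling, from -0.08 with TMM to 0.12 on RPM. Within batch B the median of the 4 was 0.41. No C-type lectin gene of 237 and no ribosomal protein gene of 81 was a member, and 73 of the ribosomal protein genes were WAGO-4 targets.

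Of 86 spermatogenesis genes, spe-41, which encodes a sperm calcium channel, and spe-47, a regulator of sperm activation, were members. spe-41 had 105, 112 and 69.4 RPM in WT and 40.2, 44.3 and 40.4 RPM in 3×FG, without overlap, and was not called at the threshold (-1.40, edgeR adjusted p = 0.017). spe-47 had a log2 fold change of -0.54. Among 72 his genes, 27 were targets and the only member was his-24, a linker histone H1 gene, with 1327, 1321 and 1169 RPM in WT and 883, 923 and 826 RPM in 3×FG (-0.73, edgeR adjusted p = 0.048).

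Genes of small RNA pathways were mostly WAGO-4 targets, 45 of 60 measured. The members were eri-6, parn-1, rde-11 and rrf-2, and none was called, with 3 at an unadjusted p under 0.05 and none called by DESeq2. parn-1, which encodes the exonuclease that trims piRNA precursors, had 571, 594 and 586 RPM in WT and 819, 876 and 859 RPM in 3×FG. The genotypes did not overlap, but the log2 fold change after TMM scaling was 0.35 (edgeR adjusted p = 0.19). rde-11, a RING finger protein needed for RNAi, had 453, 500.1 and 421 RPM in WT and 314, 346 and 341 RPM in 3×FG (-0.66, edgeR adjusted p = 0.051). rrf-2, a gene of the RNA-dependent RNA polymerase family, had 85.4, 104 and 115 RPM in WT and 76.9, 78.8 and 86.4 RPM in 3×FG (-0.52), which overlapped.

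Of 11 genes often read as reporters of endogenous 22G-RNA pathways, 9 were members and 1 was a target. All 9 had log2 fold changes below 0 with TMM, from -2.14 to -0.20, and 7 of 9 without rRNA in the totals. The median of the 9 was -0.40 with TMM and -0.17 within batch B. None was called in the edgeR fit described above, with 4 at an unadjusted p under 0.05, and DESeq2 called 1 lower. K02E2.6 had 1786, 1800.2 and 1618 RPM in WT and 1472, 1911 and 1803 RPM in 3×FG, which overlapped. xol-1, the master switch of sex determination and dosage compensation, had a log2 fold change of -1.03 (edgeR adjusted p = 0.022). E01G4.5 (II:13472401-13473995), a gene targeted in the ERGO-1 pathway, varied most in WT, with 242, 506 and 869 RPM against 116, 126 and 174 RPM in 3×FG (-2.14, standard error 0.42, edgeR adjusted p = 0.025).

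Some members lay side by side. Among neighbouring protein-coding genes, members formed 47 runs of at least 2, of which 41 were pairs, and 541 stood alone. The longest run held 4 F-box genes on chromosome III, fbxa-60, fbxa-67, fbxa-11 and fbxa-10, between III:944733 and III:954102. Their log2 fold changes were -2.44, -0.83, -1.70 and -1.97, and all but fbxa-67 were called lower. There were 5 runs of 3. The one first in chromosome order, Y71A12B.10, Y71A12B.11 and gadr-5 on chromosome I, had -0.64, -0.63 and -0.16, with no call. In the other 4, rme-6 was the only gene called (-1.66, edgeR adjusted p = 0.0023). Neighbours of 1 family can share reads, so runs are not independent members.

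Sense reads of the same genes were a readout that the choice of members did not use. A sense row was present for 620 members, and its median level in WT was 0.44 RPM, so that antisense reads outnumbered sense reads by a median of 346-fold. For the targets at the minimum, the sense median was 2.93 RPM and the ratio 29.1. Of the 291 sense rows tested, 4 (1.37%) were called lower and none higher, with a median of 0.09, against 2.04% called lower and a median of 0.18 over all rows. The 4 were those of AC8.11 (from 100.7 to 34.1 RPM), K08F11.1 (from 20.5 to 7.26 RPM), Y71F9AL.4 (from 38.1 to 12.2 RPM) and F37H8.6 (from 209 to 64.5 RPM), and the antisense row of none of them was called. Sense reads exceeded antisense reads in WT for 2 members, F37H8.6 and arrd-15.

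Of the 642 members, 158 share exon bases with a gene on the other strand, 109 of them with a protein-coding gene, and their antisense reads cannot be told apart from reads in the sense of that gene. Among the 158, 37 were called lower and 3 higher, with a median of -0.53. Among the other 484, 103 were lower and 11 higher, with a median of -0.68. Overlap on the same strand is not reported here, and not all 642 members are separate measurements. zfp-1 and F54F2.14, which lie over each other on chromosome III, had WT means of 969 and 943 RPM. Y19D10A.4 and C01B4.7 had the same counts in every WT input, 126, 326 and 1006.

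The edited helicase genes and wago-4 are themselves WAGO-4 targets, and their antisense reads do not show the edits. glh-1 had 281 RPM in WT and 320 RPM in 3×FG (means of 3 inputs), with a log2 fold change of -0.01. glh-2, which carries the FG deletion, rose from 21.9 to 63.0 RPM, with 1.32 (edgeR adjusted p = 0.0059), and was the only one of the 4 past the threshold. glh-4 had 251 and 589 RPM, with 1.03 (edgeR adjusted p = 0.040), and wago-4 had 116 and 260 RPM, with 0.96 (edgeR adjusted p = 0.019).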

How the data were processed

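The 3 WT and 3 3×FG input libraries were used. The authors deposited raw counts of the inputs by feature and strand, together with RPM values of WAGO-4 targets that passed their enrichment, which served here only to list targets. The submitters' processing notes name cutadapt 1.15, STAR 2.6.0c and the builds ce10 and ce11 without their roles, and how reads matching several places or both strands were counted is not given in the sources used here. For the same target rows the authors' input RPM had a median of 0.861 to 0.875 times the RPM computed here from the matrix, so the matrix is not the same read class or total. Reads on no feature were left out.

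RPM was computed on the remaining totals. Counts were fitted over all rows passing filterByExpr with edgeR 4.0.16 (glmQLFTest, TMM, R 4.3.3), with genotype as the only term. The standard error is the log2 fold change divided by the root of F. Alternatives were RPM and rRNA-free totals, no filter, a batch term, batch B alone, a replicate block, DESeq2 1.42.0, other minimums (25 and 100 RPM) and choices of members, and each library left out. On simulated counts of 22497 rows, 200 of 200 changed rows were recovered with 3 false calls. The simulation gave every row the same dispersion, had no batch difference and placed large changes in well-covered rows only. It checks the code and cannot show how firm the calls in these inputs are.

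Gene positions, exon lengths and overlaps come from Ensembl's WBcel235 annotation, in which all 642 members were found, 641 as protein-coding. Named genes were the 12 highest members, the 10 largest decreases and increases among called members without overlap, members of fixed gene lists (all up to 4, else the highest and both extremes of fold change), those next to the minimum, the 2 longest runs (ties by chromosome order), members with identical counts and the edited genes. Others were named after their values were seen. Members and lists were chosen with earlier results of these data known.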

Additional observations from a re-analysis of the deposited data

How the results depend on the processing

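The members' median stayed below 0 in every setting run. It was -0.44 on RPM, -0.31 without rRNA in the totals, -0.34 without a filter, -0.30 with a batch term, -0.29 within batch B, -0.40 and -0.18 with members chosen by all 6 or by the 3×FG inputs, and -0.28 with members chosen by WT inputs 1 and 2 and compared in batch B. With libraries left out one at a time it ranged from -0.73 to -0.47, the lower calls from 1 to 252 and the higher calls from 0 to 20. The higher calls were 25 on RPM, 36 without rRNA, 40 without a filter, 48 with a batch term, 48 within batch B, 27 with DESeq2, 28 at a minimum of 25 RPM, 46, 67 and 49 with those 3 other choices of members, and 4 at 100 RPM. The lower calls were 52 with members chosen by the 3×FG inputs, 76 at 100 RPM (423 members) and 248 in a fit of antisense rows alone, chosen after seeing the data. The members' share of antisense reads was 64.8% in WT and 52.6% in 3×FG, and the 3×FG share without rRNA was 23.4%.

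Inputs with the same replicate number in the sample titles correlated at -0.31, -0.02 and -0.25, as deviations from the mean of their genotype. In WT these deviations hold the difference between the batches, so the correlations cannot show whether the samples are paired. The library names share 1 number between genotypes, that of WT input 3 and 3×FG input 1, both of batch B, which correlated at 0.38. With a replicate block edgeR called 0 members lower and 0 higher, with 422 at an unadjusted p under 0.05. How many of all rows reached that level was not counted for this fit or for those with a library left out. Of the 66 genes named by rule 29 were called. At most 1 of them lost its call under another scaling, filter, batch setting or DESeq2, all 29 lost it under the block, and none changed sign. Up to 5 others gained a call, and 11 that were not called changed sign in some setting, such as F02C12.3. The balance of lower and higher calls turned over with members chosen by the 3×FG inputs. The cause of these shifts was not tested. With 3 libraries a genotype, few residual degrees of freedom and a batch nearly confounded with genotype, calls of single genes are not firm. Called members kept their direction across the fits, but they were picked for it in the same libraries. WT input 1 was the shallowest library, where 50 RPM is about 104 reads.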

Other observations

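Further members called lower are given here, all named after their values were seen. cnb-1 and tax-6 encode the regulatory and the catalytic subunit of calcineurin, a calcium-dependent phosphatase. Antisense reads of cnb-1 fell from 102, 102 and 65.9 RPM in WT to 9.45, 7.04 and 8.73 RPM in 3×FG (log2 fold change -3.62, standard error 0.28, edgeR adjusted p = 0.0012). Those of tax-6 fell from 77.2, 73.1 and 65.7 RPM to 15.8, 13.2 and 13.8 RPM (-2.53, standard error 0.19, edgeR adjusted p = 0.0011). gsa-1, a stimulatory G protein subunit, fell from 197, 218 and 195 RPM to 22.2, 19.3 and 23.0 RPM (-3.44, edgeR adjusted p = 0.00045). mef-2, a MADS box transcription factor gene, fell by 2.84 and unc-10, the worm RIM gene of synaptic vesicle priming, by 2.92 on the log2 scale.

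hil-3, a linker histone H1 gene on X, fell from 372, 433 and 339 RPM to 105, 115 and 99.5 RPM (-2.04, edgeR adjusted p = 0.0021), and dot-1.5, which encodes a relative of the histone methyltransferase DOT1, from 195, 252 and 246 RPM to 55.1, 44.4 and 53.8 RPM (-2.37, edgeR adjusted p = 0.0012). The more abundant linker histone gene hil-8 had 1923, 1796 and 1539.9 RPM in WT and 1329.9, 1409 and 1262 RPM in 3×FG, and was not called (-0.59, edgeR adjusted p = 0.11). A second insulin-like gene beside ins-17, ins-5, fell from 61.3, 59.2 and 64.5 RPM to 10.98, 8.36 and 6.79 RPM (-2.995, edgeR adjusted p = 0.0013).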
